A study of Mus musculus with 70 samples.

Results

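The nuclear-encoded genes of oxidative phosphorylation were taken as 1 set of 84 genes, of 24415 genes in the deposited count table. A gene belonged to the set if its symbol began with Nduf, Sdh (a to d), Uqcr, Cyc1, Cox4 to Cox8 or Atp5. Ndufs5, Cox6a2, the Ndufaf assembly factors and pseudogene (-ps) names were left out. By symbol, 37 members belonged to complex I, 4 to complex II, 9 to complex III, 17 to complex IV and 17 to complex V. The symbol rule placed Ndufa4 with complex I, and Atp5s and Atp5sl with complex V, whatever their products do. Of the 84 members, 3 (Cox7b2, Cox8b and Cox8c) had no count in any of the 70 libraries. Cox4i2, with 74 counts over all libraries, and Ndufa4l2, with 18, did not reach 1 CPM (counts scaled to a common library total) in at least 3 libraries and were not tested. The other 79 were tested in NOD and B6g7 cells and 78 in the Rag1-/- cells, where Cox7a1 also fell under that filter.

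Oxidative phosphorylation runs in the inner mitochondrial membrane. Complex I takes electrons from NADH and complex II, which is also an enzyme of the tricarboxylic acid cycle, takes them from succinate. Complex III passes them to cytochrome c and complex IV to oxygen. Complexes I, III and IV pump protons, and complex V, the ATP synthase, uses the proton gradient to make ATP. A small group of core subunits is encoded by mitochondrial DNA, and no mitochondrially encoded gene was in the table. In dendritic cells, oxidative phosphorylation is known as the main energy source of the resting state, while activation shifts many of them towards glycolysis.

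Cells were sorted from the spleens of mice aged 8 to 10 weeks, and RNA was sequenced from 5 populations: the 2 conventional dendritic cell types, cDC1 and cDC2, the dendritic cells that derive from monocytes (moDC), the plasmacytoid ones (pDC), and monocytes. NOD mice, a strain that develops autoimmune diabetes, were set against B6g7 mice, which are C57BL/6 with the MHC class II haplotype of NOD, and NOD Rag1-/- mice against B6 Rag1-/- mice, which both lack mature B and T cells. Every mouse of all 4 strains had received phosphate-buffered saline (PBS) into the peritoneum 5 h before collection, so no untreated animals were compared. The 18 groups held 6 libraries each of NOD and B6g7 cDC1 and cDC2. There were 5 NOD and 6 B6g7 moDC libraries, and 3 of each strain for pDC and monocytes. In the Rag1-/- set, each strain had 3 libraries of cDC1, cDC2 and pDC, with 3 NOD Rag1-/- and 2 B6 Rag1-/- libraries of moDC. The controls of the Rag1-/- mice are B6, not B6g7, so the MHC haplotype also differed there. The labels do not say which libraries came from separate animals, so the p-values measure the spread between these libraries, which may in part be technical.

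Libraries held between 12806956 and 20642503 counts. NOD and B6g7 cells were sequenced in run 2 from 537 to 5000 cells per library, and Rag1-/- cells in run 1 from 6575 to 14529 cells. Between these sets, the effects of the deletion, run, date of sorting and number of cells cannot be told apart. Rag1 itself was at 0.130 to 3.48 CPM in Rag1-/- libraries and at 0 to 0.444 CPM in NOD and B6g7 libraries. It therefore gave no check of the genotype labels. The part of the gene that was deleted is not given in the sources used here. All 10 markers of the labelled cell type were detected in each cDC1, cDC2 and pDC group, and all 10 monocyte markers in the moDC and monocyte groups. Most were also detected in other groups, so detection does not check the labels. By summed level, cDC1 markers were highest in cDC1 and pDC markers in pDC. The cDC2 markers did not separate cDC2, with a median of 3805 CPM in B6 Rag1-/- moDC and 2822 CPM in B6 Rag1-/- cDC2. Monocyte markers were highest in monocytes and did not mark out moDC in every strain. Their median was 9060 CPM in B6 Rag1-/- moDC and 14852 CPM in B6 Rag1-/- pDC, while in B6g7, NOD and NOD Rag1-/- it was higher in moDC than in pDC. NOD and B6g7 cDC1, cDC2 and moDC were sorted on 2 dates, pDC on another (10.16.2015) and monocytes on 01.05.2016 only. The 6 pDC libraries of the Rag1-/- set stood apart from one another, as described with their values below.

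The promoters of the 3 genes of ATP synthase subunit c are shown first, because 1 of the 3, Atp5g1, differed between NOD and B6g7 in all 5 cell types while the other two passed the threshold in none. Subunit c forms the rotating ring of the ATP synthase, and the 3 genes encode the same mature protein behind different targeting peptides. Each sequence runs from 250 bases before to 50 bases after the annotated start (RefSeq, GRCm38.p6), 5′ to 3′ on the gene's strand, at chr11:96075582-96075881 (minus strand) for Atp5g1, chr15:102670998-102671297 (minus strand) for Atp5g2 and chr2:73911277-73911576 (minus strand) for Atp5g3. Capitals mark a match to the motif of NRF1, a transcription factor known for respiratory chain genes, spelled GCGC, any base, TGCGC.
Atp5g1: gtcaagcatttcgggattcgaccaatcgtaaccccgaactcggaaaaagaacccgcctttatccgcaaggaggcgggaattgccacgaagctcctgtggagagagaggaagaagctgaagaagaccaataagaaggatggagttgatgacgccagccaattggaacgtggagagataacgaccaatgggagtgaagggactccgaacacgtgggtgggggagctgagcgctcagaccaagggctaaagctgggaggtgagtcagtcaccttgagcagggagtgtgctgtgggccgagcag
Atp5g2: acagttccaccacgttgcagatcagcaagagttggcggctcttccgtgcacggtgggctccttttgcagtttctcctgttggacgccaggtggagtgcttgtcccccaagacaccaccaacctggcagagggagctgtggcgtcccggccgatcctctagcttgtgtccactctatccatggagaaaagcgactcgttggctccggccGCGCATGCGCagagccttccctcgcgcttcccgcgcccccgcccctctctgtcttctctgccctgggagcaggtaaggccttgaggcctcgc
Atp5g3: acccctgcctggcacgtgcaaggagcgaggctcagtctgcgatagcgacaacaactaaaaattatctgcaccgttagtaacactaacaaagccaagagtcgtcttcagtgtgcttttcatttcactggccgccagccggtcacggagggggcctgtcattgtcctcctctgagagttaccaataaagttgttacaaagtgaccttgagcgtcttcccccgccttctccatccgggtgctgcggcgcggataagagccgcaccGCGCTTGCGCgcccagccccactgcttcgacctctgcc
The NRF1 motif was read on both strands and stood once in the windows of Atp5g2 and Atp5g3 and nowhere in that of Atp5g1. Over the 69 members with a promoter in the RefSeq table, 16 (23.2%) held the NRF1 motif, against 5.19% of all 27025 promoters of this length. The ETS core CCGGAAG stood in 16 member promoters (23.2%, against 9.93% of all) and the YY1 motif AAGATGGC in 11 (15.9%, against 3.19%). None of the 3 motifs is contained in another. These are matches of letters, and binding was not measured.

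The most visible difference in the set lay between sort dates. The members took up between 0.872% and 3.43% of the counts of a library. In the 24 libraries of NOD and B6g7 cells sorted on 01.05.2016 their share was 1.07% to 1.32% (median 1.17%), against 1.95% to 3.30% (median 2.22%) in the 17 libraries sorted on 10.26.2015. The 2 dates did not overlap. The 6 NOD and B6g7 pDC libraries, sorted on 10.16.2015, lay at 1.87% to 2.24%. Rag1-/- cDC1, cDC2 and moDC libraries lay at 0.872% to 1.22%, close to the later date.

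**Figure D1:**
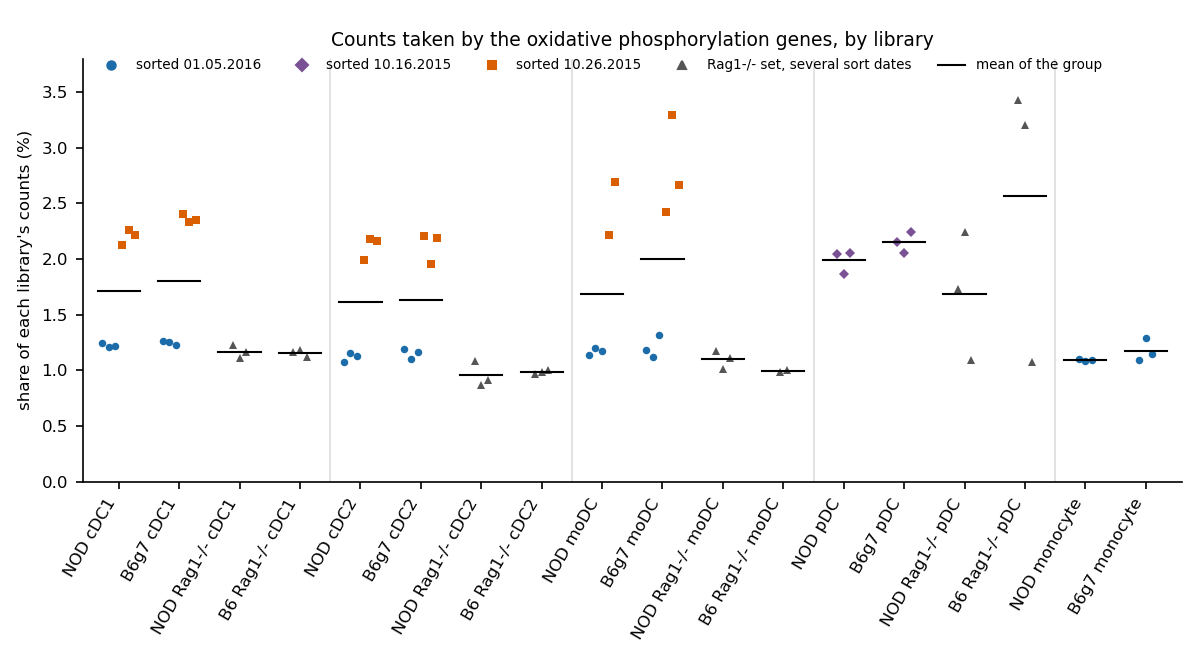
Share of each library's counts taken by the members (percent, y axis), 1 point per library, grouped by cell type and strain, with colours for the sort date. Libraries of NOD and B6g7 cDC1, cDC2 and moDC form 2 bands, at 1.07% to 1.32% on 01.05.2016 and at 1.95% to 3.30% on 10.26.2015, and the Rag1-/- pDC libraries run from 1.08% to 3.43%.

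By complex, the level of a library was taken as the median log2 CPM of the members. In NOD cDC1 of 01.05.2016, complex I had a mean level of 6.32 ± 0.08, complex II 7.48, complex III 6.83, complex IV 7.35 and complex V 7.20 (SD, n = 3). In NOD cDC1 of 10.26.2015 the same levels were 7.75, 8.17, 8.39, 9.09 and 8.74 (n = 3). Complex II, whose flavoprotein Sdha went the other way, differed least. B6g7 moDC had a complex IV level of 7.43 ± 0.15 on 01.05.2016 and 9.70 ± 0.42 on 10.26.2015 (SD, n = 3 each).

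**Figure D2:**
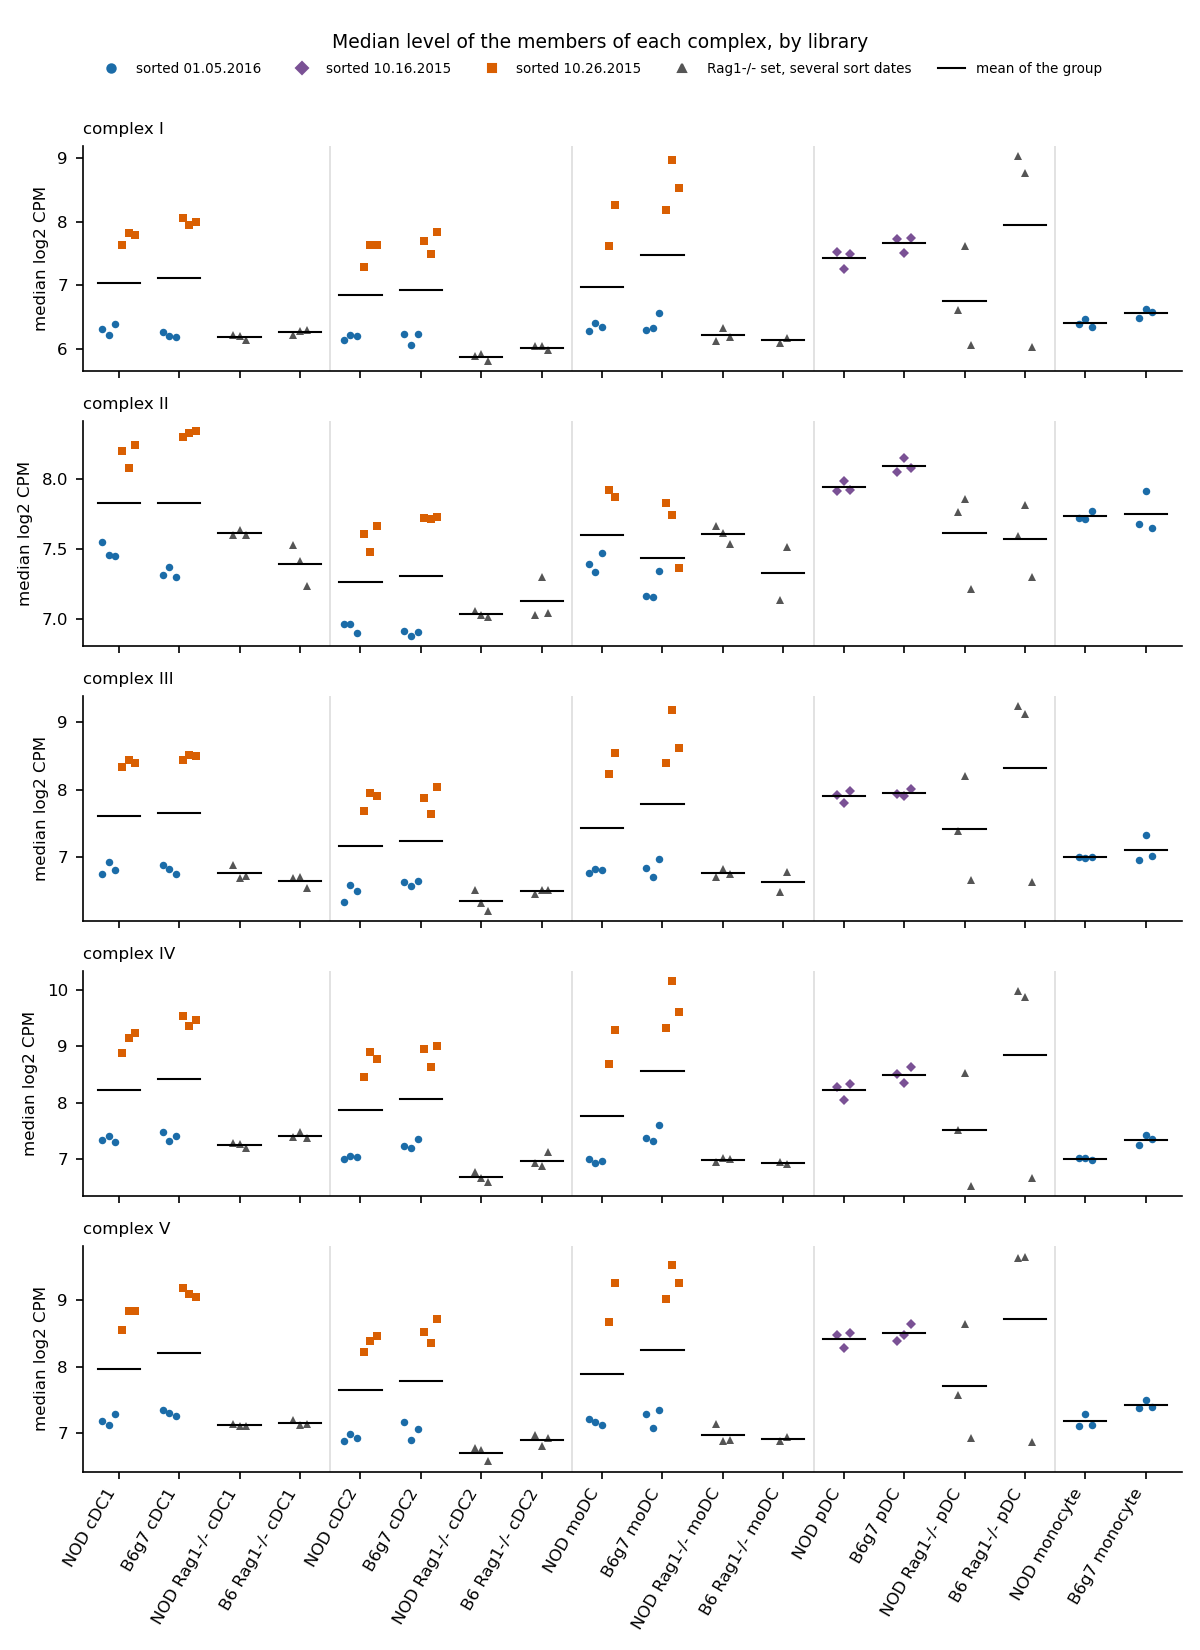
Median log2 CPM of the members of complexes I to V (y axis, 1 panel per complex) in each of the 70 libraries, by cell type and strain and coloured by sort date. Complex IV of NOD cDC1 averaged 7.35 on 01.05.2016 and 9.09 on 10.26.2015, while complex II averaged 7.48 on 01.05.2016 and 8.17 on 10.26.2015.

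Tested within the fit of NOD and B6g7 libraries (edgeR's quasi-likelihood test, Benjamini-Hochberg adjusted p under 0.05), nearly the whole set was lower on the later date. In cDC1, 2 of 79 members were higher and 76 lower on 01.05.2016 than on 10.26.2015, where 65.2% of all genes tested were called (36.5% higher, 28.7% lower). In cDC2 it was 2 and 75 (63%, 33.7% higher and 29.3% lower), and in moDC 3 and 74 (62%, 33.4% higher and 28.6% lower). The median change of the members was −1.66 in cDC1, −1.58 in cDC2 and −2.16 in moDC, against 0.15, 0.10 and 0.09 over all genes. Without scaling for composition the member medians were −1.10, −1.08 and −1.5, while the median of all genes moved to 0.70, 0.59 and 0.73. This comparison was added after the levels had been seen.

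Among complex I members, Ndufs1, the largest iron-sulfur core subunit, rose by 0.40 ± 0.10 in cDC1, 0.52 ± 0.10 in cDC2 and 0.67 ± 0.10 in moDC (log2 ± SE; edgeR adjusted p = 0.000319, 8.48e-06 and 2.61e-07). Ndufb6, a small accessory subunit of the membrane arm, fell by 2.05, 2.06 and 2.51. In complex II, Sdha, the catalytic flavoprotein, rose by 0.59 ± 0.08, 0.65 ± 0.08 and 0.60 ± 0.08, whereas Sdhb, the iron-sulfur subunit, fell by 1.47, 1.38 and 1.22. Sdhc, a membrane anchor, fell by 0.40 ± 0.10 in cDC1 and rose by 0.35 ± 0.11 in moDC.

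In complex III, Uqcrb, a small subunit, fell by 2.09 ± 0.12, 2.17 ± 0.12 and 2.67 ± 0.13, among the largest falls of the set in every cell type, while the core protein Uqcrc1 fell by 0.59, 0.55 and 0.41. The Rieske protein Uqcrfs1 fell by 1.21, 1.27 and 1.10, and cytochrome c1 (Cyc1) by 1.12, 1.04 and 0.89. In complex IV, all 13 members tested in cDC1 fell. Cox4i1 and Cox5a, which join the complex early in its assembly, fell by 1.69 and 1.91 in cDC1, and Cox7b by 1.96. In complex V the falls of the catalytic subunits were small, Atp5a1 by 0.24 ± 0.05, 0.12 ± 0.05 and 0.13 ± 0.06, and Atp5b by 0.45, 0.35 and 0.26. The change of Atp5sl was −0.19, −0.10 and −0.13.

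The size of the fall went with the length of the coding sequence. The 56 members with a coding sequence under 600 bases had a median change of −1.71 in cDC1, −1.67 in cDC2 and −2.27 in moDC, against −1.12, −1.22 and −0.89 for the 23 members of 600 bases or more. Across the 79 members, Spearman's rho between length and change was 0.59, 0.48 and 0.73, and Pearson's r 0.83, 0.81 and 0.84. This is a relation across genes of the same libraries, which are not independent replicates. The longest coding sequences, Ndufs1 (2181 bases), Sdha (1992), Atp5a1 (1659) and Atp5b (1587), sat at the top of the range, and Ndufa1 (210), Cox7b (240) and Uqcrb (333) at the bottom. Length did not order every member. The shortest, Atp5e (156), changed by −1.54, −1.41 and −2.03, Atp5o (639) by −1.81, −1.77 and −2.16, and Sdhc (507) by −0.40, −0.14 and 0.35.

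**Figure D3:**
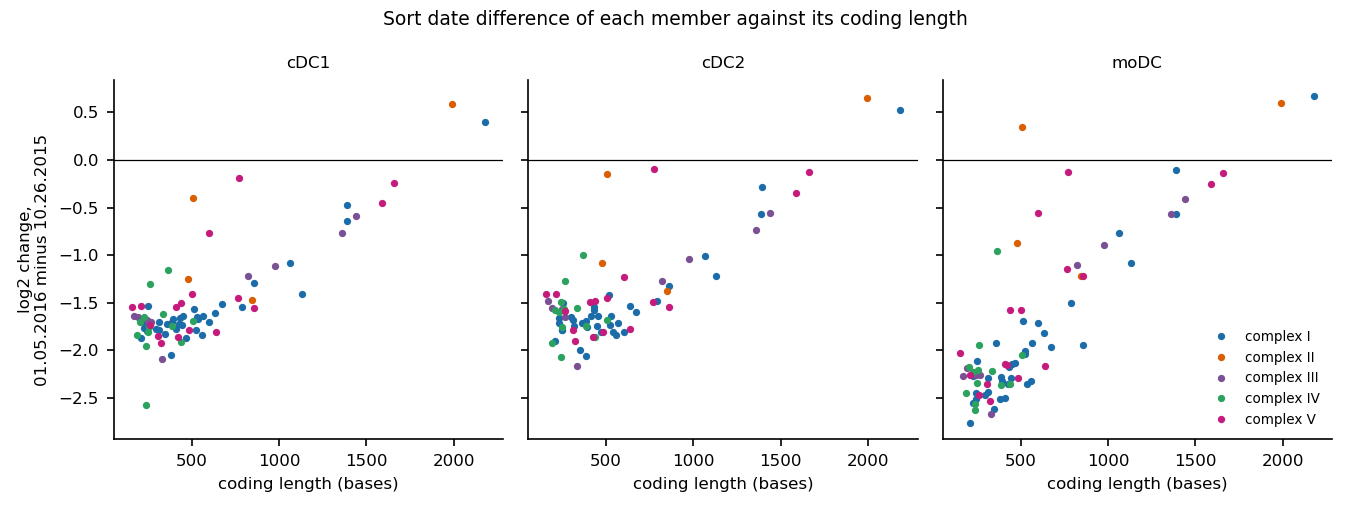
Change between sort dates, 01.05.2016 minus 10.26.2015 (log2, y axis), against the length of the coding sequence in bases (x axis), 1 point per member and 1 panel per cell type. Ndufs1 (2181 bases) and Sdha (1992 bases) lie above 0 in the 3 panels, and most members under 600 bases lie below −1.

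Genes of other lists moved with the date as well, and their coding lengths were not taken. Of 96 cytosolic ribosomal protein genes tested, 5 were higher and 85 lower in cDC1 (median −1.44), and of 77 mitochondrial ribosomal protein genes none was higher and 75 lower (median −1.51). Of 46 assembly factors, 5 were higher and 37 lower (median −1.07), and all 12 carriers and partners of the chain were lower. The 17 enzymes of the tricarboxylic acid cycle split into 5 higher and 10 lower, the 21 of glycolysis into 9 and 9, and the 16 regulators of mitochondrial biogenesis into 7 and 4. The dates also differed in cell number, 3017 to 5000 cells per library on 01.05.2016 and 537 to 2000 on 10.26.2015, and these 2 differences cannot be told apart. The RNA integrity number was 3.9 to 10 on the later date and 8.1 to 9.3 on the earlier one.

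The strain comparison was therefore made within sort date. Within a date, cell number and RNA quality still differed by strain in part. On 01.05.2016 the B6g7 cDC1 libraries had 5000 cells and the NOD cDC1 libraries 3021 to 3384. In cDC2 of that date, the libraries with an RNA integrity number of 6.8 and 3.9 were both B6g7. Without these 2, 1 member was higher and 12 lower in cDC2. The part of cell number was not tested. Most members did not pass the threshold, and those that did were mostly lower in NOD. In cDC1, 2 of 79 members were higher and 11 lower in NOD than in B6g7, beside 20.4% of all genes called (11.5% higher, 8.97% lower). In cDC2, 2 were higher and 13 lower (22% of all genes, 11.8% higher and 10.2% lower). In moDC, 5 were higher and 29 lower (30.3%, 16% higher and 14.3% lower). In pDC, 1 was higher and 5 were lower (12.6%, 5.16% higher and 7.39% lower), and in monocytes 1 and 9 (15.3%, 7.83% higher and 7.50% lower). The share of members called thus lay below that of all genes in 4 cell types and above it in moDC. The median change of the members was −0.23 in moDC, −0.18 in pDC, −0.17 in monocytes, −0.06 in cDC2 and −0.05 in cDC1, with the median of all genes at 0.02 or closer to 0 in each. Over the 5 cell types 44 members were called at least once, 6 of them higher and 38 lower, and no member was called in both directions. The share of all genes called at least once was not counted, so these counts cannot be set against all genes.

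The moDC count depended on scaling and on date. For the counts in this paragraph the share of all genes called in the same fits is not given. Without scaling, 13 members were higher and 18 lower in moDC, with the median of all genes at 0.14. On 01.05.2016 alone 3 members were higher and 8 lower in moDC, and on 10.26.2015 alone 7 and 31. Without NOD moDC replicate 1, 17 members were called. In cDC1 each date alone gave 8 members on 01.05.2016 (3 higher, 5 lower) and 6 on 10.26.2015 (0 and 6), and 8 were called without NOD cDC1 replicate 1. In cDC2 the dates gave 4 (1 and 3) and 7 (1 and 6). In monocytes 4 members were called without B6g7 replicate 2, NOD replicate 1 or NOD replicate 3, and in pDC 3 without NOD replicate 1 or 2.

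**Figure D4:**
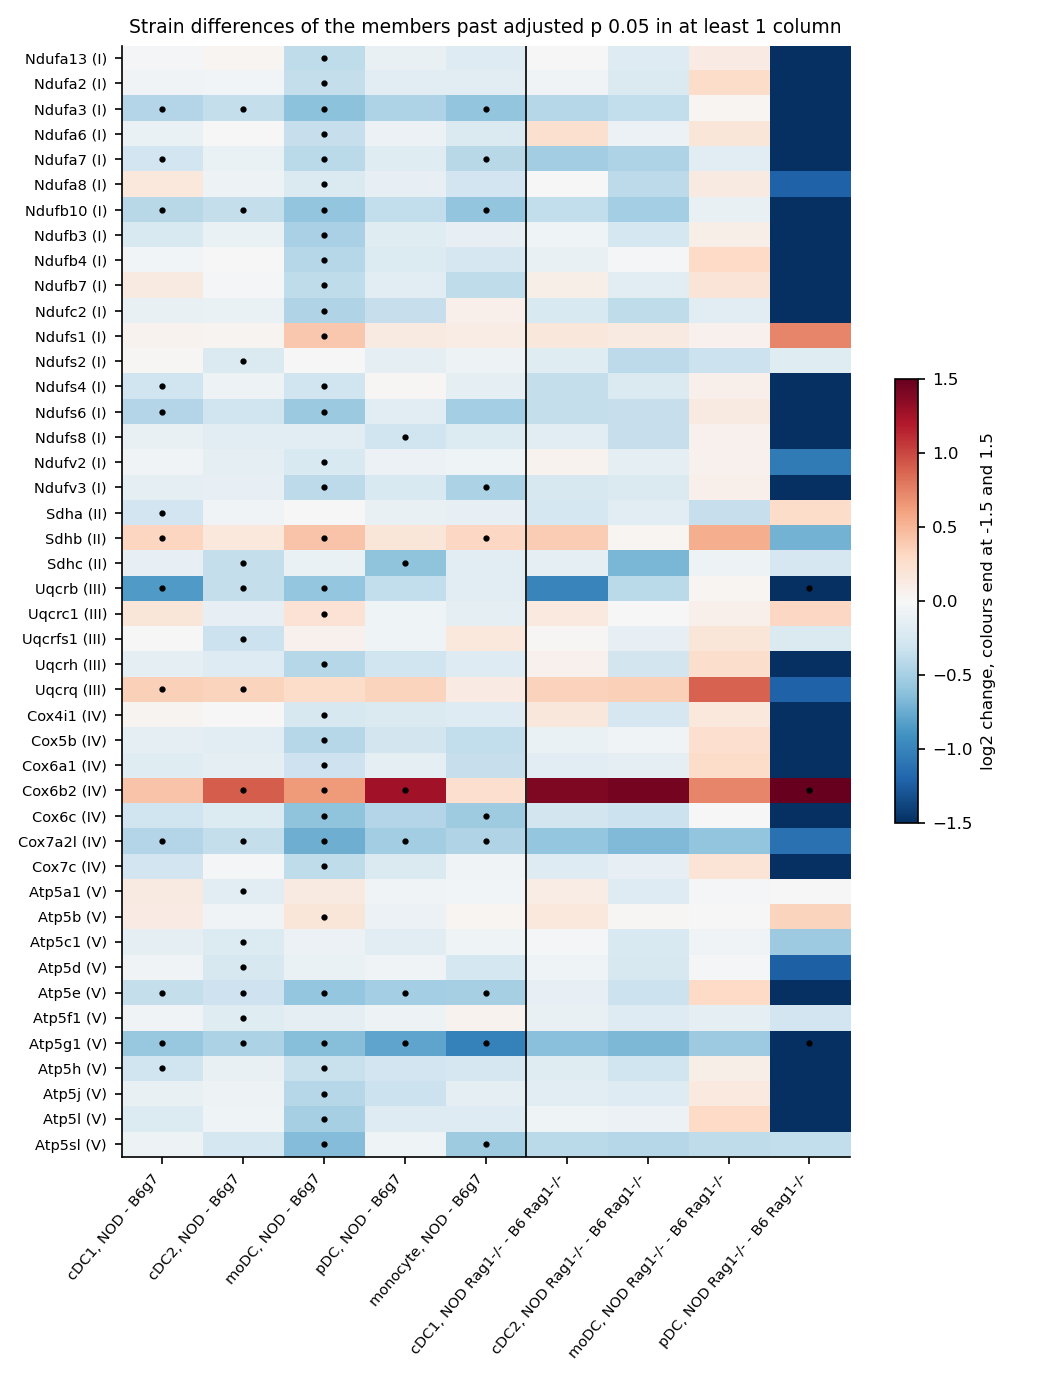
Log2 change of the 44 members called in at least 1 cell type (rows, by complex) in the NOD minus B6g7 and NOD Rag1-/- minus B6 Rag1-/- comparisons (columns), with colours ending at ±1.5 and dots for an adjusted p under 0.05. Atp5g1, Cox7a2l and Atp5e carry a dot in all 5 cell types of NOD minus B6g7.

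Atp5g1, in complex V, was lower in NOD in every cell type. In cDC1 sorted on 10.26.2015 it had 273, 321 and 287 CPM in NOD libraries, against 521, 544 and 512 CPM in B6g7 libraries. On 01.05.2016 it had 110, 103 and 127 CPM in NOD cDC1 and 148, 147 and 140 CPM in B6g7 cDC1. NOD lay below B6g7 with no overlap on both dates, although the level itself differed more between dates than between strains.

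In moDC, Atp5g1 had 292 and 404 CPM in NOD, against 520, 882 and 614 CPM in B6g7 on 10.26.2015, and 94.2, 100.3 and 101 CPM in NOD, against 142, 123 and 129 CPM in B6g7 on 01.05.2016. In pDC it had 203, 164 and 200 CPM in NOD and 315, 321 and 363 CPM in B6g7. In monocytes it had 66.6, 69.7 and 69.4 CPM in NOD and 121, 159 and 133 CPM in B6g7. In none of the 8 strata of cell type and date did the strains overlap. The log2 change was −1.02 ± 0.15 in monocytes, −0.79 ± 0.15 in pDC, −0.64 ± 0.11 in moDC, −0.57 ± 0.11 in cDC1 and −0.47 ± 0.11 in cDC2 (log2 ± SE; edgeR adjusted p = 2.36e-06, 0.000156, 2.42e-05, 7.54e-05 and 0.000779). Within the single dates the change was −0.40 and −0.89 in moDC, −0.36 and −0.78 in cDC1 and −0.45 and −0.45 in cDC2, for 01.05.2016 and 10.26.2015 in that order, each with an edgeR adjusted p of 0.0480 or smaller.

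The other two subunit c genes, whose promoters are printed above beside that of Atp5g1, were not called in any cell type. Atp5g2 changed by −0.14 ± 0.07, −0.11 ± 0.07, −0.16 ± 0.08, −0.03 ± 0.10 and −0.10 ± 0.11 in cDC1, cDC2, moDC, pDC and monocytes, and Atp5g3 by −0.07, 0.00, −0.02, −0.27 and −0.04. The 2 transcripts of Atp5g1 did not change alike. In the authors' deposited table, the transcript NM_007506 had log2 fold changes of −0.67, −0.60, −0.76, −0.87 and −1.14 in the 5 cell types, each with an adjusted p of 0.000403 or smaller. In the same authors' deposited table NM_001161419 had 0.11, 0.40, 0.79, 0.26 and −0.44, and its rise in moDC was also called (limma adjusted p = 0.0298), opposite to the other transcript. Atp5e, the small epsilon subunit of the central stalk, was also called in all 5 cell types, at −0.36, −0.31, −0.58, −0.51 and −0.50, but when single libraries were left out in turn it stayed past the threshold in 3 of 12 fits in cDC2, 1 of 6 in pDC and 2 of 6 in monocytes. Atp5a1 was called in cDC2 alone (−0.17 ± 0.05) and Atp5b in moDC alone (0.18), in opposite directions.

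**Figure D5:**
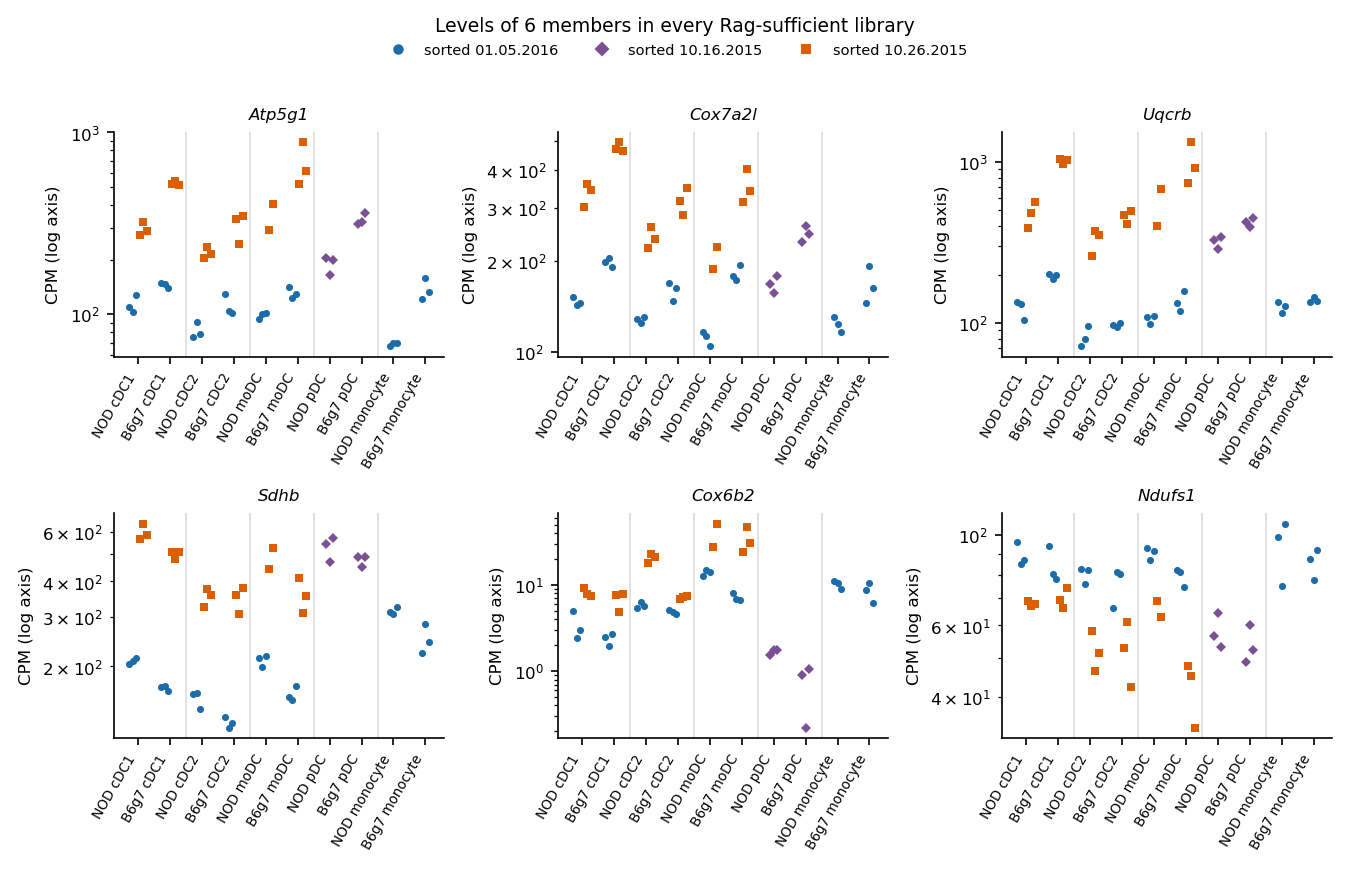
CPM (log scale, y axis) of Atp5g1, Cox7a2l, Uqcrb, Sdhb, Cox6b2 and Ndufs1 in every NOD and B6g7 library, 1 panel per gene, with NOD left of B6g7 in each cell type. Atp5g1 in monocytes lies at 66.6 to 69.7 CPM in NOD and at 121 to 159 CPM in B6g7, and Sdhb lies higher in NOD, at 308 to 324 CPM against 223 to 283 CPM.

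Atp5sl, placed in complex V by its symbol, was called at the gene level in moDC (−0.65 ± 0.13) and monocytes (−0.53 ± 0.18). In monocytes the call held in 1 of 6 fits without 1 library. The 2 transcripts of Atp5sl moved in opposite directions. The transcript NM_025504 had 0.636 to 2.96 CPM in NOD cDC1 and 6.26 to 15.2 CPM in B6g7 cDC1, and 1.76 to 3.83 CPM in NOD moDC and 24.6 to 33.8 CPM in B6g7 moDC. It lay at 0.379 to 3.25 CPM in NOD pDC and 15.6 to 25.7 CPM in B6g7 pDC. The strains did not overlap in these 3 cell types, nor in cDC2 and monocytes. The transcript NM_001290487 had 21.5 to 30.6 CPM in NOD moDC and 9.95 to 22.1 CPM in B6g7 moDC, and 42.8 to 57.4 CPM in NOD pDC and 33.9 to 37.8 CPM in B6g7 pDC. In the authors' deposited table NM_025504 had log2 fold changes of −2.89, −2.40, −3.21, −3.87 and −3.37 in cDC1, cDC2, moDC, pDC and monocytes (limma adjusted p of 3.33e-06 or smaller), and NM_001290487 had 0.81, 0.78, 0.65, 0.50 and 0.48, past the threshold in the first 3. The split of reads between transcripts of a gene is an estimate. This gene was described after its values had been seen.

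In complex IV, Cox7a2l, a Cox7a relative known for joining complexes III and IV into supercomplexes, was lower in NOD in the 5 cell types. In cDC1 it had 303, 361 and 343 CPM in NOD, against 471, 494 and 462 CPM in B6g7 on 10.26.2015, and 153, 144 and 146 CPM in NOD, against 199, 204 and 192 CPM in B6g7 on 01.05.2016. In moDC it had 188 and 223 CPM in NOD and 314, 405 and 340 CPM in B6g7 on 10.26.2015, and 116, 113 and 105 CPM in NOD and 179, 173 and 194 CPM in B6g7 on 01.05.2016. The strains did not overlap in any of the 8 strata. The change was −0.73 ± 0.07 in moDC, −0.53 ± 0.10 in pDC, −0.45 ± 0.10 in monocytes, −0.44 ± 0.07 in cDC1 and −0.36 ± 0.07 in cDC2 (edgeR adjusted p = 5.05e-11, 6.80e-05, 0.000517, 2.43e-06 and 6.53e-05). In the authors' deposited table its transcript NM_009187 was lower in the 5 cell types (−0.62 to −0.30, limma adjusted p of 0.0341 or smaller). The transcript NM_001159529 was called in the opposite direction in pDC (4.64, limma adjusted p = 0.0270) and was not called elsewhere.

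Cox6b2, an isoform of subunit 6b best known from testis, was among the few members higher in NOD and was low throughout. In cDC2 sorted on 10.26.2015 it had 17.9, 22.7 and 21.1 CPM in NOD and 6.85, 7.31 and 7.45 CPM in B6g7, and on 01.05.2016 5.38, 6.32 and 5.74 CPM in NOD and 5.09, 4.86 and 4.54 CPM in B6g7. NOD was higher on both dates, widely so on the earlier one and by less than 2 CPM on the later. Its change was 0.90 ± 0.23 in cDC2, 0.63 ± 0.23 in moDC and 1.26 ± 0.42 in pDC (edgeR adjusted p = 0.00234, 0.0311 and 0.0409). When 1 library was left out, it stayed past the threshold in 12 of 12 fits in cDC2, 4 of 11 in moDC and 1 of 6 in pDC. In pDC it lay at 1.56 to 1.78 CPM in NOD and 0.222 to 1.07 CPM in B6g7. Of the subunits that all cells use, Cox4i1 fell in moDC (−0.24) and Cox6c in moDC (−0.61) and monocytes (−0.53), and Cox5a was not called in any cell type. Without 1 library, Cox4i1 stayed called in 8 of 11 fits in moDC and Cox6c in 3 of 6 in monocytes.

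In complex III, Uqcrb showed the largest strain difference of cDC1. It had 392, 482 and 562 CPM in NOD cDC1, against 1047, 975 and 1025 CPM in B6g7 cDC1 on 10.26.2015, and 135, 132 and 104 CPM in NOD, against 201, 188 and 199 CPM in B6g7 on 01.05.2016. NOD was below B6g7 in both. The change was −0.85 ± 0.12 in cDC1, −0.36 ± 0.12 in cDC2 and −0.58 ± 0.12 in moDC (edgeR adjusted p = 2.37e-07, 0.0197 and 0.000311), and −0.37 ± 0.16 in pDC and −0.16 ± 0.16 in monocytes, where it was not called. Uqcrq, another small subunit, rose by 0.35 ± 0.12 in cDC1 and 0.33 ± 0.12 in cDC2, past the threshold in 5 and 6 of 12 fits without 1 library. Uqcrc1 rose in moDC (0.22 ± 0.08) and Uqcrfs1 fell in cDC2 (−0.32 ± 0.06). Cyc1 was not called in any cell type.

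In complex II, Sdhb was higher in NOD. In moDC it had 443 and 526 CPM in NOD, against 410, 310 and 356 CPM in B6g7 on 10.26.2015, and 214, 200.2 and 218 CPM in NOD, against 156, 152 and 170.3 CPM in B6g7 on 01.05.2016. In monocytes it had 311, 308 and 324 CPM in NOD and 223, 283 and 245 CPM in B6g7. Over the 8 strata, NOD lay above B6g7 in 6 and overlapped it in 2. Sdhb rose by 0.32 ± 0.07 in cDC1, 0.43 ± 0.07 in moDC and 0.31 ± 0.10 in monocytes (edgeR adjusted p = 0.000382, 6.36e-06 and 0.0179; the call in monocytes held in 3 of 6 fits without 1 library), and its change was 0.15 ± 0.07 in cDC2 and 0.18 ± 0.09 in pDC. The other subunits of the complex did not share this direction: Sdha fell in cDC1 (−0.28 ± 0.08), Sdhc fell in cDC2 (−0.36 ± 0.10) and pDC (−0.61 ± 0.14), and Sdhd was not called. The Sdhc change in cDC2 was −0.69 on 10.26.2015, with 40.6 to 50.7 CPM in NOD and 66.8 to 87.7 CPM in B6g7, and 0.0086 on 01.05.2016, where the strains overlapped.

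In complex I, the recurrent members were accessory subunits. Ndufb10, of the membrane arm, had 156, 168 and 182 CPM in NOD cDC1, against 243, 247 and 244 CPM in B6g7 cDC1 on 10.26.2015, and 59.1, 52.2 and 52.3 CPM in NOD, against 67.8, 70.1 and 71.2 CPM in B6g7 on 01.05.2016. The strains did not overlap in any of the 8 strata. It fell by 0.59 ± 0.10 in moDC, 0.59 ± 0.14 in monocytes, 0.42 ± 0.10 in cDC1 and 0.36 ± 0.10 in cDC2 (edgeR adjusted p = 1.92e-05, 0.00170, 0.00136 and 0.00476). Ndufa3 fell in the same 4 cell types, by 0.62, 0.60, 0.44 and 0.36 (in cDC2 past the threshold in 4 of 12 fits without 1 library, and in monocytes in 3 of 6), and Ndufa7 in 3. Of the core subunits, Ndufs1 rose in moDC (0.40 ± 0.10, edgeR adjusted p = 0.00208), with 68.8 and 62.9 CPM in NOD, against 47.6, 45.2 and 33.7 CPM in B6g7 on 10.26.2015. On 01.05.2016 it had 93.0, 87.0 and 91.5 CPM in NOD and 82.0, 81.1 and 74.6 CPM in B6g7. With each date alone, the change of Ndufs1 in moDC was 0.71 on 10.26.2015 and 0.20 on 01.05.2016 (edgeR adjusted p = 0.00367 and 0.210). Of its transcripts in the authors' deposited table, only NM_001160039 was called in moDC (log2 fold change 1.87, limma adjusted p = 0.0123). The transcript NM_145518 had 0.09 there (limma adjusted p = 0.840). Ndufv1, which binds NADH, was not called. Sdhb, Ndufb10, Ndufa3, Atp5e, Uqcrq and the other recurrent members were named after their values had been seen where the naming rule did not cover them.

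Genes of related pathways gave their own counts in NOD minus B6g7. Of 96 cytosolic ribosomal protein genes, none was higher and 69 were lower in moDC. In the conventional types, cDC1 gave 0 and 22, and cDC2 gave 3 and 32. Monocytes gave 1 and 20, and pDC 2 and 13. Of 77 mitochondrial ribosomal protein genes, 5 were higher and 5 lower in cDC1, and 3 and 22 in moDC. The 21 glycolytic genes split into 6 higher and 4 lower in cDC1, 3 and 4 in moDC, and 0 and 9 in monocytes. Of 46 assembly factors, 3 were higher and 10 lower in moDC. The 17 genes of the tricarboxylic acid cycle gave 3 higher and 1 lower in cDC1 and 3 and 2 in moDC, and the 12 carriers 1 and 5 in moDC.

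Markers of other cells moved with the strain. All 10 erythroid markers were measured, and their summed level was 2851 to 16478 CPM in NOD cDC1 and 175 to 3005 CPM in B6g7 cDC1, 3354 to 32285 CPM in NOD cDC2 and 193 to 3117 CPM in B6g7 cDC2, and 3308 to 23608 CPM in NOD moDC and 73.2 to 2107 CPM in B6g7 moDC. It was 2285 to 4233 CPM in NOD pDC and 51.4 to 752 CPM in B6g7 pDC, and 1395 to 4540 CPM in NOD monocytes and 51.5 to 695 CPM in B6g7 monocytes. The strains overlapped only in cDC1. The 9 neutrophil markers summed to 9.86 to 279 CPM in NOD cDC1 and 0.462 to 5.57 CPM in B6g7 cDC1, where Elane and Mpo were at 0, and to 3.11 to 1915 CPM in NOD cDC2 and 0.186 to 10.5 CPM in B6g7 cDC2, where Mpo was at 0. They summed to 514 to 1755 CPM in NOD moDC and 1.70 to 227 CPM in B6g7 moDC, where Camp and Elane were at 0, and to 247 to 388 CPM in NOD monocytes and 1676 to 7808 CPM in B6g7 monocytes. Over 12 marker lists and 5 cell types, 60 pairs in all, the summed level lay above B6g7 in NOD without overlap in 15 and below it in 7. B cell markers (8 of 9 detected) were at 538 to 2804 CPM in NOD moDC and 180 to 399 CPM in B6g7 moDC, and T cell markers (7 of 9 detected) at 64.9 to 210.2 CPM in NOD moDC and 15.1 to 63.7 CPM in B6g7 moDC. In NOD pDC, all 10 monocyte markers were detected and summed to 2146 to 2326 CPM, against 8871 to 9072 CPM in B6g7 pDC, where F13a1 was at 0. Red pulp macrophage markers summed to 92.2 to 139.6 CPM in NOD pDC and 471 to 671 CPM in B6g7 pDC. The part of these markers in the strain differences of the members was not tested. In sorted bulk samples, fewer cells of a type and less RNA per cell cannot be told apart.

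The strain effect was unequal among the 5 cell types for 6 of 79 members, beside 24.3% of all genes (edgeR's quasi-likelihood F test of the differences, Benjamini-Hochberg adjusted). These were Uqcrfs1 (F = 6.58, adjusted p = 0.00320), Atp5a1 (F = 5.82, adjusted p = 0.00638), Uqcrc1, Ndufa8, Cox7a2l and Uqcrb (adjusted p = 0.0327 to 0.0367). Of the 6, 3 belonged to complex III. Uqcrfs1 was lower in NOD in cDC2, where it had 191, 156 and 182 CPM in NOD, against 228, 199 and 263 CPM in B6g7 on 10.26.2015, and 77.2, 75.1 and 84.7 CPM in NOD, against 99.3, 86.9 and 99.6 CPM in B6g7 on 01.05.2016. In the other cell types its change lay between −0.07 and 0.16. Atp5a1 changed by −0.17 in cDC2 and by 0.14 in both cDC1 and moDC. Atp5g1 was not among the 6, and Atp5g2 had the smallest F (0.304).

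In the Rag1-/- cells, no member passed the threshold between strains in cDC1, cDC2 or moDC. edgeR called none of 78 in these 3 comparisons, beside 1.66% (0.769% higher, 0.891% lower), 2.32% (1.07% and 1.26%) and 1.49% (0.571% and 0.922%) of all genes. At an unadjusted p under 0.05 there were 0, 2 (1 higher, 1 lower) and 0, and limma and DESeq2 called none. The 6 pDC libraries, whose member levels spread most, share 1 estimate of the spread with the others in this fit. The authors' deposited table, fitted per transcript with limma, holds 1 member transcript called in each of the 3, NM_025504 of Atp5sl, with log2 fold changes of −3.34, −2.73 and −4.20 and adjusted p = 0.0120, 0.00602 and 0.00117. When these 6 pDC libraries were left out, an alternative added after seeing the data, members were called in all 3 cell types.

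Without the pDC libraries, 4 members were lower in NOD Rag1-/- cDC1, with 3.94% of all genes called. Atp5g1 had 78.4, 80.5 and 90.0 CPM in NOD Rag1-/- cDC1 and 117, 131 and 134 CPM in B6 Rag1-/- cDC1 (log2 change −0.65 ± 0.15, edgeR adjusted p = 0.0220). Uqcrb had 126, 128 and 131 CPM in NOD Rag1-/- cDC1 and 286, 248 and 227 CPM in B6 Rag1-/- cDC1 (−1.003 ± 0.11, edgeR adjusted p = 5.83e-05). Neither gene overlapped between the strains. Cox7a2l (−0.60 ± 0.14) and Ndufa7 (−0.54 ± 0.13) were the other two.

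In cDC2 3 members were lower (5.58% of all genes), Atp5g1 (−0.67), Cox7a2l (−0.65) and Ndufb10 (−0.50). In moDC 1 was higher and 1 lower (4.24%), Uqcrq (0.88 ± 0.17, edgeR adjusted p = 0.00952) and Cox7a2l (−0.60, edgeR adjusted p = 0.0380). Uqcrq encodes a small subunit of complex III and had 93.8, 93.9 and 113 CPM in NOD Rag1-/- moDC and 45.0 and 63.9 CPM in B6 Rag1-/- moDC. Sdhb had 220.2, 246 and 272 CPM in NOD Rag1-/- moDC and 142 and 196 CPM in B6 Rag1-/- moDC, without overlap, and was not called. The erythroid markers differed here too, at 12126 to 15219 CPM in NOD Rag1-/- cDC1 and 525 to 4787 CPM in B6 Rag1-/- cDC1, 12811 to 25252 CPM in NOD Rag1-/- cDC2 and 916 to 9530 CPM in B6 Rag1-/- cDC2, and 9810 to 16551 CPM in NOD Rag1-/- moDC and 563 to 752 CPM in B6 Rag1-/- moDC. Their part was not tested.

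In Rag1-/- pDC, 1 member was higher and 2 were lower, beside 4.53% of all genes (1.87% higher, 2.66% lower), while the median change of the members was −1.54. The 6 libraries did not form 2 groups by strain. The members took 1.09%, 1.73% and 2.24% of the counts in NOD Rag1-/- pDC and 3.43%, 3.20% and 1.08% in B6 Rag1-/- pDC. Atp5g1 had 61.6, 138 and 268 CPM in NOD Rag1-/- pDC and 995, 865 and 112 CPM in B6 Rag1-/- pDC, and Uqcrb had 101, 166 and 334 CPM in NOD Rag1-/- pDC and 1320, 926 and 94.0 CPM in B6 Rag1-/- pDC. B6 Rag1-/- pDC 3 thus sat with the lowest NOD Rag1-/- library and the strains overlapped for both genes.

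Atp5g1 fell by 2.09 ± 0.54 and Uqcrb by 1.98 ± 0.56, and Cox6b2 rose by 2.77 ± 0.73 (edgeR adjusted p = 0.0319, 0.0492 and 0.0369). Cox6b2 had 1.24, 17.2 and 5.97 CPM in NOD Rag1-/- pDC and 1.59, 1.35 and 0.631 CPM in B6 Rag1-/- pDC. Leaving out B6 Rag1-/- pDC 1 and 2 left 1 library of that group, which was assumed to vary like the other groups. No call held there, and Atp5g1 changed by 0.58 and Uqcrb by 1.19, values that rest on that single library. Without B6 Rag1-/- pDC 1 alone, without its replicate 2, or without NOD Rag1-/- pDC 2, none was called, and 1 was without NOD Rag1-/- pDC 1. Without B6 Rag1-/- pDC 3 64 were called, and without NOD Rag1-/- pDC 3 63. The share of all genes called in these fits is not given here, so the counts cannot be set against all genes. B6 Rag1-/- pDC 1 and 2 were also apart in marker genes. The 10 monocyte markers summed to 1767, 1714 and 2414 CPM in NOD Rag1-/- pDC and to 14852, 22579 and 3375 CPM in B6 Rag1-/- pDC. The 10 pDC markers summed to 10003, 8510 and 18851 CPM in NOD Rag1-/- pDC and to 37079, 38920 and 12069 CPM in B6 Rag1-/- pDC. The part of these markers in the result was not tested.

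The strain effect itself was compared between NOD minus B6g7 and NOD Rag1-/- minus B6 Rag1-/- in 1 fit of all 70 libraries. No member passed the threshold in cDC1, cDC2 or moDC (edgeR, beside 0.210%, 1.11% and 0.586% of all genes). At an unadjusted p under 0.05 there were 0, 0 and 1, and no other tool was run. In pDC 1 member differed, beside 1.39% of all genes: Ndufs4, an accessory subunit of complex I, by 1.58 ± 0.42 (edgeR adjusted p = 0.0352; NOD and B6g7 effect minus Rag1-/- effect). Its change was 0.02 ± 0.12 in NOD minus B6g7 pDC and −1.60 ± 0.49 in NOD Rag1-/- minus B6 Rag1-/- pDC, neither of them past the threshold, in the comparison that includes the 6 Rag1-/- pDC libraries described above.

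Between cell types, most members were higher in each of the others than in cDC2 after scaling. For NOD and B6g7, cDC1, cDC2 and moDC were averaged over their 2 sort dates, except against monocytes, where the shared date was used. In NOD and B6g7 cells 64 members were higher and 5 lower in cDC1 than in cDC2, beside 61.8% of all genes (29.8% higher, 32.1% lower). In moDC it was 66 and 1 (50.1%, 26.6% higher and 23.4% lower), in pDC 71 and 3 (73.6%, 33.9% higher and 39.7% lower), and in monocytes 51 and 2 (66.2%, 32.5% higher and 33.6% lower), each against cDC2. The median change of the members was 0.29, 0.42, 0.67 and 0.39. moDC and monocytes, compared on the date they shared, gave 4 higher and 31 lower in moDC, with a median of −0.19, beside 54.2% of all genes (26.8% higher, 27.3% lower). The moDC and monocyte count was 18 without replicate 2 and 22 without replicate 5. Without scaling, the median of all genes moved to −0.33, −0.20, −0.33, −0.45 and 0.29, and the members to 28 higher and 12 lower, 51 and 9, 61 and 4, 15 and 20, and 15 and 4, in the same order. The direction for monocytes against cDC2 and for moDC against monocytes therefore depended on scaling. Without a sort date term, moDC against monocytes gave 46 higher and 2 lower. The pDC comparison cannot be told apart from the pDC sort date, and 10.16.2015 lay with the date of higher member levels. It set pDC against cDC2 averaged over both dates. The members' share was 1.87% to 2.24% in NOD and B6g7 pDC, and 1.95% to 2.21% in cDC2 of 10.26.2015. By median level, complex II was higher in pDC than in these cDC2 libraries without overlap, and the other complexes overlapped.

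All 9 members of complex III and all 4 of complex II were higher in cDC1 than in cDC2, with 26 higher and 3 lower in complex I, 10 and 1 in complex IV and 15 and 1 in complex V. Ndufb11, an accessory subunit of complex I, had 412, 454 and 515 CPM in NOD cDC1 and 193, 242 and 263 CPM in NOD cDC2 on 10.26.2015, and 170.1, 149 and 152 CPM in NOD cDC1 and 75.4, 85.3 and 75.9 CPM in NOD cDC2 on 01.05.2016. These NOD libraries did not overlap on either date. It rose by 0.98 ± 0.08, and Uqcrfs1 rose by 0.94 ± 0.05 (edgeR adjusted p = 2.08e-15 and 3.28e-22). The lower members were Cox6b2 (−0.86), Atp5sl (−0.84), Ndufb4, Ndufa8 and Ndufs7. On each date alone the counts were 53 and 4 on 01.05.2016 and 45 and 2 on 10.26.2015.

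In moDC against cDC2, complex I gave 33 higher and none lower, and complex II 2 and 0. Cox6b2 (1.24 ± 0.16), Ndufb7 (0.73 ± 0.09) and Uqcrb (0.69 ± 0.08) rose most, and Atp5s (−0.43 ± 0.14) fell. Cox6b2 had 27.4 and 51.4 CPM in NOD moDC and 17.9, 22.7 and 21.1 CPM in NOD cDC2 on 10.26.2015. The dates alone gave 41 and 0 on 01.05.2016 and 60 and 2 on 10.26.2015. In monocytes against cDC2 the largest rises were in Uqcrfs1 (1.14 ± 0.07), Sdhb (1.07 ± 0.07) and Uqcrc1 (0.96 ± 0.08), and Atp5s (−1.47 ± 0.20) and Atp5g2 (−0.29 ± 0.07) fell. In moDC against monocytes the same 3 subunits of complexes II and III fell most, Sdhb by 0.67, Uqcrfs1 by 0.61 and Uqcrc1 by 0.50, and Atp5s (1.38), Atp5g2 (0.42) and Ndufa12 (0.42) rose. These 2 comparisons share the monocyte libraries.

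Atp5s, named for a coupling factor of the ATP synthase, was high in pDC and low in monocytes. It had 20.1, 22.5 and 26.8 CPM in NOD pDC, 6.24, 6.37 and 4.82 CPM in NOD moDC of 01.05.2016 and 1.19, 2.55 and 3.64 CPM in NOD monocytes. pDC against cDC2 gave the 3 largest rises in the core complex I subunits Ndufs8 (1.33 ± 0.06) and Ndufs3 (1.24 ± 0.07) and in Atp5s (1.20 ± 0.16), and Sdhb rose by 1.17 ± 0.06. Cox6b2 fell by 2.89 ± 0.25, Cox7a1, a muscle isoform, by 2.00 ± 0.68, and Ndufs1 by 0.19 ± 0.09. Cox7a1 lay under 2 CPM in every NOD and B6g7 library.

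In the Rag1-/- cells, 5 members were higher and 1 lower in cDC1 than in cDC2, beside 23% of all genes (10.3% higher, 12.7% lower). Ndufb11 rose by 1.20 ± 0.37, Uqcrfs1 by 0.93 ± 0.21, Atp5c1 by 0.81, Uqcrc2 by 0.64 and Atp5b by 0.51, and Atp5sl fell by 1.004 ± 0.15. Ndufb11, Uqcrfs1 and Atp5sl were also among the members named in NOD and B6g7 cells, in libraries that share none with these. Without replicate 1, 2 or 3 the count was 2, 1 and 29, for which the share of all genes called is not given here. Without the 6 pDC libraries 58 members were higher and 1 lower (38.2% of all genes). In moDC against cDC2 edgeR called no member, beside 12% of all genes (6.64% higher, 5.36% lower). At an unadjusted p under 0.05 there were 2, limma called 0 and DESeq2 1, and without the pDC libraries 36 were higher and none lower (23.7%).

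In pDC against cDC2 of Rag1-/- mice, 72 members were higher and 1, Ndufs1 (−0.53 ± 0.20), lower, beside 54.3% of all genes (27.9% higher, 26.4% lower). Ndufa11 (2.63), Ndufc1 (2.51) and Uqcr11 (2.47) rose most. Without B6 Rag1-/- pDC 1 and 2 and NOD Rag1-/- pDC 3, the 3 libraries with the highest member levels, 24 were higher and none lower, with a median of 0.35 in place of 1.91. Ndufs1 had 67.4, 126 and 53 CPM in NOD Rag1-/- pDC and 34.1, 37.1 and 75.3 CPM in B6 Rag1-/- pDC, so it was lowest in the libraries in which the rest of the set was highest.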

How the data were processed

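RNA of 70 sorted samples was amplified with a low-input SMART-seq v4 kit and sequenced as paired-end reads, per the labels' protocols. The authors deposited expected counts for 35070 RefSeq transcripts, made with RSEM per the submitters' processing notes; 48.2% of the values above 0 were not whole (tolerance 0.01). The aligner, the build and the annotation that the authors used: not given in the sources used here. The authors' deposited comparison tables hold log2 fold changes and adjusted p-values per transcript, made with limma per the same notes. Many members have processed pseudogenes, and the authors' counting could have split reads between near-identical copies.

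Expected counts were summed per gene (98 transcripts had no name), rounded and tested with edgeR's quasi-likelihood test (edgeR 4.0.16, R 4.3.3; TMM scaling, robust fits, at least 1 CPM in 3 libraries). Benjamini-Hochberg adjustment ran over all genes tested, 13406 in NOD and B6g7 cells, 13127 in Rag1-/- cells and 13832 in all libraries, with a threshold of 0.05. The fit of NOD and B6g7 cells had a mean for each of 8 combinations of cell type with sort date plus 5 strain effects (residual degrees of freedom, 34). The Rag1-/- fit had 8 group means (15). Levels are CPM with TMM factors over all 70 libraries. limma 3.58.1 and DESeq2 1.42.0 were alternatives, and the scripts were tested on simulated data. The biological coefficient of variation was 22.1% in NOD and B6g7 cells and 44.2% in Rag1-/- cells.

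Members and lists were chosen with earlier results of these data known. Named members were, per comparison, the 3 largest rises and 3 largest falls past the threshold with a mean of at least 5 CPM in the higher group, those with the largest and smallest F, and fixed sets of core, subunit c and isoform genes. Replicate numbers gave no clear pairing of NOD and B6g7 libraries (correlations of same-numbered libraries −0.111 to 0.151). Every same-numbered pair of cDC1 with cDC2 was above 0 (0.00774 to 0.105 in B6g7, 0.00612 to 0.107 in NOD). Shared animals are therefore not excluded, and the comparisons of cell types did not pair libraries. In Rag1-/- cells replicate numbers did pair libraries for part of the set, where they also matched sort dates: NOD Rag1-/- with B6 Rag1-/- cDC1 (0.106 to 0.282), and cDC1, cDC2 and moDC of NOD Rag1-/- (0.110 to 0.326). The other Rag1-/- pairings ran from −0.669 to 0.387 and included pairs under 0.1.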

Additional observations from a re-analysis of the deposited data

Results flagged for a closer look

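The strain effect of 6 members differed among the 5 cell types in the test of the difference itself (edgeR F test, adjusted p). The values were 0.00320 for Uqcrfs1, 0.00638 for Atp5a1, 0.0327 for Uqcrc1, 0.0344 for Ndufa8, 0.0349 for Cox7a2l and 0.0367 for Uqcrb. For Uqcrfs1 the effect was −0.32 in cDC2 and between −0.07 and 0.16 in the others. For Cox7a2l it was −0.73 in moDC and −0.36 in cDC2, lower in NOD in the 5 cell types. The strain effect of Ndufs4 in pDC differed by 1.58 between NOD minus B6g7 and NOD Rag1-/- minus B6 Rag1-/-. Over 144 groups of named members, the rule used singled out no library, fewer than the about 1 of 20 that chance would give. This does not show that libraries of a group lay close together. In B6 Rag1-/- pDC, for example, the members took 3.43%, 3.20% and 1.08% of the counts.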

How the results depend on the processing

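Counts below are members called, and the share of all genes called in the same fits is not given beside them. Each library left out in turn gave 8 to 12 in cDC1, 10 to 15 in cDC2, 17 to 44 in moDC, 3 to 6 in pDC and 4 to 10 in monocytes for NOD minus B6g7, and 0 to 0 in cDC1, cDC2 and moDC and 0 to 64 in pDC for NOD Rag1-/- minus B6 Rag1-/-. For cell types it gave 60 to 69 (cDC1 minus cDC2), 60 to 67 (moDC minus cDC2), 70 to 74 (pDC minus cDC2), 50 to 59 (monocyte minus cDC2) and 18 to 42 (moDC minus monocyte), in Rag1-/- cells 1 to 29, 0 to 1 and 60 to 74 for the first 3, and for the sort date 78 to 78, 75 to 77 and 75 to 77. Atp5g1 and Cox7a2l stayed past the threshold in every one of these fits for NOD minus B6g7, whereas Atp5e, Cox6b2, Ndufa3, Sdhb and Uqcrq lost calls as given with their values. Other named members lost calls too. In monocytes Atp5sl held in 1 of 6 fits and Cox6c in 3 of 6. In moDC Cox4i1 and Uqcrc1 held in 8 of 11 and Atp5b in 9 of 11. In cDC2 Atp5a1 and Uqcrb each held in 9 of 12. Without a sort date term the strain counts were 0 in cDC1, cDC2, pDC and monocytes and 1 in moDC, cDC1 minus cDC2 gave 12, moDC minus cDC2 3, monocyte minus cDC2 11, pDC minus cDC2 18, and unequal strain effects 0, while moDC minus monocyte turned to 46 higher and 2 lower. With each cell type fitted alone, cDC1 gave 20, moDC 14 and pDC 15. Each date alone gave 8 and 6 in cDC1, 4 and 7 in cDC2, 11 in moDC (01.05.2016) and 41 for moDC minus cDC2 (01.05.2016), and on 01.05.2016 alone Sdhc changed sign in cDC2 (0.0086). With the replicate block, cDC1 gave 3, cDC2 4, moDC 44 (1 higher, 43 lower), pDC 2 and monocytes 2 for strain, Rag1-/- pDC 0, cDC1 minus cDC2 43 and moDC minus cDC2 30. It turned the direction for pDC minus cDC2 (32; 11 higher, 21 lower), moDC minus monocyte (75; 72 higher, 3 lower) and monocyte minus cDC2 (5 higher, 68 lower). The block held no sort date term, so equal numbers could join different dates. Replicates 1 to 3 of cDC2 were sorted on 10.26.2015, of monocytes on 01.05.2016 and of pDC on 10.16.2015. NOD moDC 3 was sorted on 01.05.2016 and B6g7 moDC 3 on 10.26.2015. The turned directions and the block counts with moDC therefore include the difference between dates. Correlations gave no clear pairing by number in NOD and B6g7 libraries. In Rag1-/- cells, where some numbers pair libraries, the block left 0 called between strains in cDC1, 6 for cDC1 minus cDC2 and 0 for moDC minus cDC2. Without scaling, Rag1-/- pDC gave 1, cDC1 minus cDC2 40, monocyte minus cDC2 35, moDC minus monocyte 19 and moDC minus cDC2 in Rag1-/- cells 1. For Rag1-/- pDC, limma gave 0, DESeq2 51 and a sort date term 1, and for moDC minus cDC2 in Rag1-/- cells DESeq2 gave 1 and the date term 1. Leaving out the 6 Rag1-/- pDC libraries gave 4 in cDC1, 3 in cDC2, 2 in moDC, 59 for cDC1 minus cDC2 and 36 for moDC minus cDC2. Leaving out B6 Rag1-/- pDC 1 and 2, which leaves 1 library assumed to vary like the other groups, gave 0 in pDC, with Atp5g1 at 0.58 and Uqcrb at 1.19, both changed in sign, and leaving out those and NOD Rag1-/- pDC 3 gave 24 for pDC minus cDC2. The cause of these shifts was not tested. DESeq2 was not run for unequal strain effects, and no alternative was run for the difference between the sets. In the Rag1-/- cells, the larger spread limits what can be detected.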
